A study of Homo sapiens with 6 samples.

Results

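The transcripts described here are 10 genes whose splicing hnRNP A1 is known to regulate: PKM, SMN1, SMN2, BCL2L1, MST1R, HRAS, INSR, CD44, MAPT and CDK2. They are named for what is known of their splicing, not for a cluster count, and stand among 20163 annotated protein-coding genes. Their binding sites were the clusters for which the authors' annotation named 1 of these genes as the nearest start and which also lay inside that gene, on its strand. This left 4 of 16269 clusters, 3 in PKM and 1 in INSR, and no cluster named for a member lay outside it. A further 2 clusters lay inside BCL2L1 but carried the name of another nearby start, so 6 clusters in 3 genes are described and 7 genes held none.

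HEK293T is a human embryonic kidney cell line. All cells were transiently transfected with myc-tagged hnRNP A1, fed with 4-thiouridine and cross-linked with ultraviolet light, and the complexes were recovered with a rabbit antibody to the tag. The 3 bands compared, with 2 libraries each, were the monomer of the R75D/R88D mutant (A1dm), a slower band of the wild-type protein that the paper calls possibly dimeric (A1-HMW), and the monomer of the wild-type protein (A1). Cluster lists were short for A1dm (232 and 596), longer for A1-HMW (671 and 865) and longest for the A1 monomer (5805 and 8100). The paper reports more peaks for A1dm and A1-HMW, made with another caller. Its number of peaks for A1 is also above that of either A1 list here. The peaks of the paper were not searched here, so a target without a cluster may still hold one. Every cluster in the deposited lists carried a score of 0, so these lists do not give the reads behind a cluster, and the depth behind a missing cluster is unknown here. The tagged protein came on top of the protein that the cells make themselves, and RNA levels of the 10 genes were not measured in these libraries.

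hnRNP A1 is an abundant nuclear protein that packages newly made transcripts and mostly represses the inclusion of nearby exons. It does so by binding short UAG-containing silencers in an exon or its flanking introns, where it can spread along the RNA or keep SR proteins and splicing factors away. Its tandem RRM domains read the RNA, and the R75D/R88D substitutions remove salt bridges between these domains. In PAR-CLIP, the cross-linked thiouridine is read as C, so each cluster marks a stretch of RNA around a T that was touched by the protein.

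The sequences of all 6 clusters, which lay in 4 regions, are shown because each carries a long stretch of A and G. A run of at least 12 purines was also present in most clusters of every library, as given below. Each is given 5′ to 3′ on the RNA strand of hg19, with T for U, and capitals mark the longest uninterrupted run of purines.
PKM, A1dm replicate 2, chr15:72515208-72515231, minus strand: GAGAAAGGAAAGGGAGAAtagggc
PKM, A1 replicates 1 and 2, chr15:72515213-72515234, minus strand: gatGAGAAAGGAAAGGGAGAAt
INSR, A1 replicate 2, chr19:7176642-7176666, minus strand: gactGAAGGAAGAGAGAAAGGGGGA
BCL2L1, A1 replicate 2, chr20:30298303-30298327, minus strand: ggaaagggttAGGAAGGAGAGAGGt
BCL2L1, A1 replicate 2, chr20:30266013-30266039, minus strand: gggtGGAGAGGAGGAAGGAGAAGctgc

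PKM encodes the pyruvate kinase of most tissues, and its mutually exclusive exons 9 and 10 make the M1 and M2 forms of the enzyme. hnRNP A1 is known to hold back exon 9, together with PTB, in proliferating cells. PKM was the only target with a cluster in more than 1 library. It had 0 clusters in A1dm replicate 1 and 1 in A1dm replicate 2, 0 in both A1-HMW libraries, and 1 in each A1 library. All 3 clusters lay at the same place, within 27 nucleotides in intron 1 of the 11-exon reference transcript, an intron of 12005 nucleotides. The A1dm cluster began 8226 nucleotides after exon 1 and lay 3757 nucleotides before exon 2. The authors' annotation placed it in a promoter, at -348 nucleotides from an alternative start, and the nearest exon of any annotated PKM transcript was 336 nucleotides away. The regulated exons, 167 nucleotides each at chr15:72495363-72495529 (exon 9) and chr15:72494795-72494961 (exon 10), lay much further along the RNA. Exon 9 began 19679 nucleotides downstream of the A1dm cluster and 19684 nucleotides downstream of the A1 clusters, and exon 10 began 20247 and 20252 nucleotides downstream.

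At the PKM site the clusters of the mutant and of the wild type differed in extent. The A1dm cluster shared 19 nucleotides with the A1 clusters, lacked 3 nucleotides at their 5′ end and reached 5 nucleotides further 3′. The clusters of both A1 replicates had identical ends, as did 1429 of the 3324 pairs of A1 clusters that overlapped between replicates (43.0%). The A1 clusters ended on a T, and that T is the first letter of TAGGG, the DNA spelling of the UAGGG element that hnRNP A1 prefers in isolated RNAs. The deposited start column lies 1 nucleotide above the start used here. By that column the A1 clusters would end just before this T and not touch the element. The A1dm cluster held the whole element. The stretch covered by either band is printed to show it, with TAGGG in capitals.
PKM, chr15:72515208-72515234, minus strand: gatgagaaaggaaagggagaaTAGGGc
TAGGG, searched on the RNA strand only, was present in 10 of 589 A1dm replicate 2 clusters (1.70%). It was rare in the other libraries too, from 1.76 to 1.85% in A1dm replicate 1 and A1-HMW and from 2.21 to 2.41% in A1. A search within 10 nucleotides of a cluster takes in the element at the PKM clusters of A1 as well. By this wider search the share was lowest in the A1dm libraries (3.96 and 4.07%). It rose to 4.78 and 5.44% in those of A1-HMW, and A1 had the highest, 6.26 and 5.93%. A 3′ end at least 5 nucleotides past that of the A1 cluster was seen in 12 of 240 A1dm replicate 2 clusters that overlapped a cluster of A1 replicate 2, PKM included, beside 138 of 3324 pairs between the A1 replicates (4.15%).

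**Figure D1:**
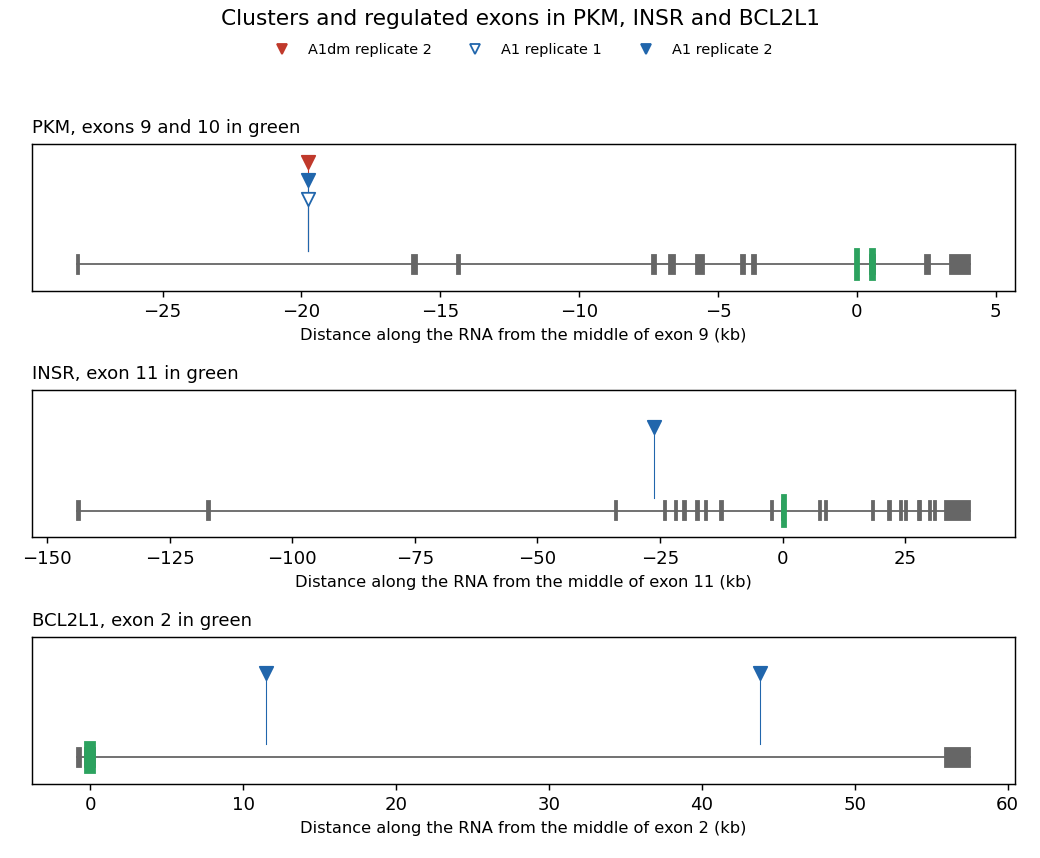
Clusters (triangles) along the RNA of PKM, INSR and BCL2L1, with exons of the reference transcript as gray boxes and the regulated exons in green (the shortest exons are drawn wider than to scale so that they can be seen); the horizontal axis is the distance in kb from the middle of the regulated exon (exon 9 for PKM), negative upstream. The PKM clusters of A1dm replicate 2 and both A1 replicates coincide in intron 1, and no cluster in the 3 genes lies within 10 kb of a regulated exon.

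The PKM site was set against all regions of the data. Of the 11416 regions made by merging overlapping clusters of all libraries, 85 held clusters in exactly both A1 libraries and A1dm replicate 2 (0.745%), and 838 held clusters in any 3 or more libraries (7.34%). Of the 3328 regions found in both A1 libraries, 180 also held a cluster of A1dm replicate 2 (5.41%), and 253 one of either A1dm replicate (7.60%). At the level of genes, 101 other protein-coding genes had clusters in the same 3 libraries as PKM and in no other. Those with most clusters were FARS2 with 15, LRMDA with 12 and FRMD3 with 10, each with 1 in A1dm replicate 2 and the rest in A1, against 3 in PKM. These 3 genes are long, at 568, 1129 and 296 kb, and PKM measures 32.79 kb.

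BCL2L1 encodes an apoptosis regulator, and the choice between a pair of 5′ splice sites at its exon 2 makes the long, protective form or the short, death-promoting form. hnRNP A1 with SAM68 is known to favor the short form. BCL2L1 had 0 clusters in both A1dm libraries, 0 in both A1-HMW libraries, 0 in A1 replicate 1 and 2 in A1 replicate 2. Both clusters were in intron 2 of the 3-exon reference transcript, an intron of 55568 nucleotides, downstream of the regulated exon. They lay 11131 and 43419 nucleotides after the end of exon 2 of the long form (chr20:30309458-30310151), which is 694 nucleotides long, 189 more than in the short form. Their purine contents were 88 and 85.2%, and their longest purine runs 14 and 19 nucleotides. The first of them holds TTAGG, without the last G of the UAGGG element. The authors' annotation named other starts on this intron, AL160175.1 and RP11-243J16.7, so a list by the nearest start counted no cluster for BCL2L1. With 2 clusters, both in A1 replicate 2, BCL2L1 shared its set of libraries with 1215 other protein-coding genes, of which 151 had at least as many clusters, led by CERT1 with 5, ARHGEF28 with 4 and BTRC with 4.

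INSR encodes the insulin receptor, and inclusion of its short exon 11 separates the metabolic form from the growth-promoting form. INSR had 0 clusters in both A1dm libraries, 0 in both A1-HMW libraries, 0 in A1 replicate 1 and 1 in A1 replicate 2. The cluster lay in intron 3 of the 22-exon reference transcript, 7661 nucleotides after exon 3 and 1900 nucleotides before exon 4. Exon 11 (chr19:7150508-7150543), which is 36 nucleotides long, began 26099 nucleotides further downstream. The cluster was 92% purine with 1 T, and its run of 21 purines was the longest among the clusters of the 10 genes. As in BCL2L1, this site was not found in A1 replicate 1, and 4522 of the 8098 regions of A1 replicate 2 were likewise in that library alone (55.8%).

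All 6 clusters held a run of at least 12 purines, with runs of 18, 18 and 18 nucleotides in PKM, 21 in INSR, and 14 and 19 in BCL2L1. Over all clusters with a reference sequence, such a run was present in 67.0 and 58.1% of the A1dm clusters, 84.5 and 87.0% of the A1-HMW clusters, and 98.1 and 96.6% of the A1 clusters. The median longest run was 17 and 16 nucleotides in the A1dm libraries, 18 in both of A1-HMW and 19 in both of A1, so that the 6 target runs lay around these medians.

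MST1R encodes the receptor tyrosine kinase RON. Skipping of its exon 11 makes a constitutively active receptor, and hnRNP A1 is known to oppose SRSF1 at this exon. No library held a cluster inside MST1R. A site found in both A1 libraries lay 3155 nucleotides past its annotated end on the same strand, at identical positions in both. The authors' annotation called it intergenic and named the pseudogene ACTBP13, and no annotated gene covers it on that strand. It is printed since it is the closest site to any target without a cluster of its own, with its purine run in capitals.
Downstream of MST1R, A1 replicates 1 and 2, chr3:49921255-49921280, minus strand: aagttGGAGGAAGAGAGAGAGAGAGt
From this site to exon 11 (chr3:49933394-49933540) the distance was 12114 nucleotides. Whether transcription of MST1R reaches it was not measured.

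CD44 encodes a hyaluronan receptor with 9 consecutive variant exons, v2 to v10, and hnRNP A1 is known as a repressor of some of them. No cluster was found in its 93.52 kb, and the nearest on its strand lay 160.3 kb upstream, at PDHX, in A1-HMW replicate 1 and A1 replicate 1. HRAS encodes a small GTPase, and its exon IDX (chr11:533277-533358, 82 nucleotides), when included, changes the end of the protein. HRAS spans only 5.08 kb and held no cluster, with the nearest 297.6 kb away, in A1dm replicate 1. CDK2, a kinase of the cell cycle whose exon 5 (chr12:56363259-56363360, 102 nucleotides) can be skipped, spans 6.009 kb and held no cluster either. A cluster of A1 replicate 2 lay 6.664 kb past its end on the same strand, next to RP11-603J24.7. MAPT encodes the microtubule protein tau, whose exon 10 (chr17:44087676-44087768, 93 nucleotides) adds a microtubule-binding repeat. It spans 133.8 kb and had no cluster, and the nearest on its strand lay 684.5 kb downstream, at NSF, in both A1 libraries. None of the 10 genes had a cluster on the opposite strand.

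SMN1 and SMN2 encode the same protein, which assembles spliceosomal particles and is deficient in spinal muscular atrophy. They are almost identical, and a C-to-T change in exon 7 makes SMN2 skip this exon, an effect in which hnRNP A1 is known to take part. The start of exon 7 is shown for both, with the differing base in capitals.
SMN1, chr5:70247768-70247791, plus strand: ggtttCagacaaaatcaaaaagaa
SMN2, chr5:69372348-69372371, plus strand: ggtttTagacaaaatcaaaaagaa
This substitution, C6T counted from the 5′ end of the exon, was the only difference in the 54 nucleotides of exon 7. Neither gene had a cluster, and the nearest on the same strand lay 530.5 kb downstream of SMN1. This absence carries a limit that was not examined for the other targets. Of all 24-nucleotide words in SMN1, a length taken from the median cluster, 98.1% also occur in SMN2. Of those in SMN2, 98.2% occur in SMN1. The paper formed its clusters from reads that map to only 1 place. Whether the deposited lists, from another caller, followed this rule is not known here. Read lengths are not in these lists, and whether mapping bears on the missing clusters was not tested.

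**Figure D2:**
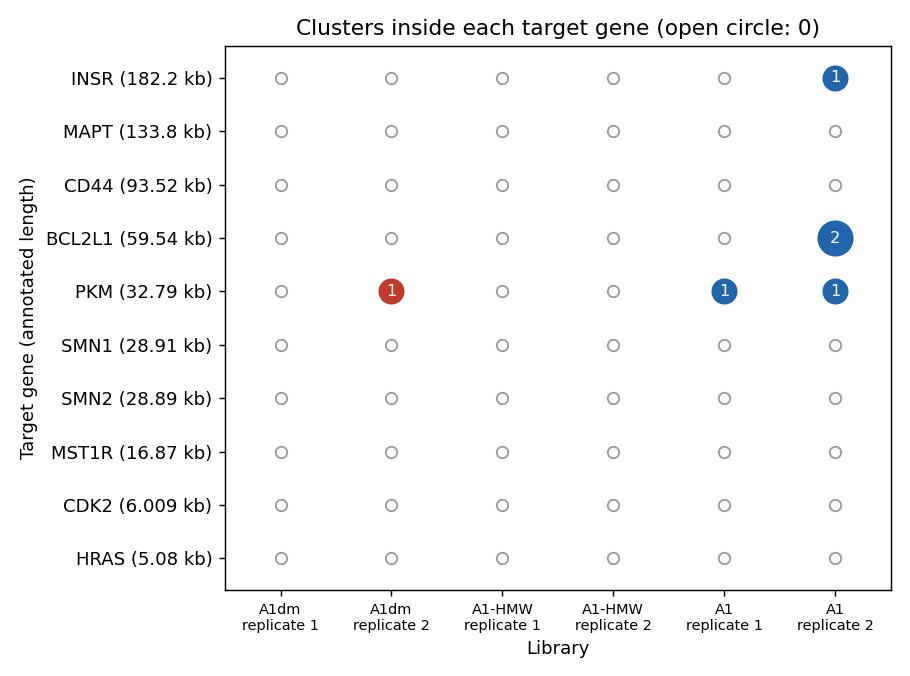
Number of clusters inside each of the 10 target genes (rows, ordered by annotated length) in each of the 6 libraries (columns); open circles stand for 0 and filled circles hold the number. PKM is filled in A1dm replicate 2 and both A1 libraries, and BCL2L1 and INSR in A1 replicate 2.

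The targets with a cluster were counted against all protein-coding genes. With clusters of either library counted, 1 of 10 targets was bound by A1dm (PKM), against 2.81% of protein-coding genes, and 0 of 10 by A1-HMW, against 4.54%. For A1, 3 of 10 were bound (PKM, INSR and BCL2L1), against 21.6% of protein-coding genes. In both libraries of a band, the targets counted 0 for A1dm, 0 for A1-HMW and 1 for A1, while the shares of all genes were 0.223, 0.798 and 11.3%. In each band the share was higher among longer genes. Under 10 kb, 0.571% of genes had an A1dm cluster, 0.761% an A1-HMW cluster and 3.69% an A1 cluster. From 10 to 50 kb these shares were 2.62, 3.57 and 17.4%, and from 50 to 200 kb they were 4.48, 8.01 and 37.6%. In A1, the 2 targets under 10 kb (HRAS and CDK2) had none, 1 of the 4 from 10 to 50 kb had a cluster (PKM), and so did 2 of the 4 from 50 to 200 kb (INSR and BCL2L1). With 10 genes, shares of this size cannot be told from the background.

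**Figure D3:**
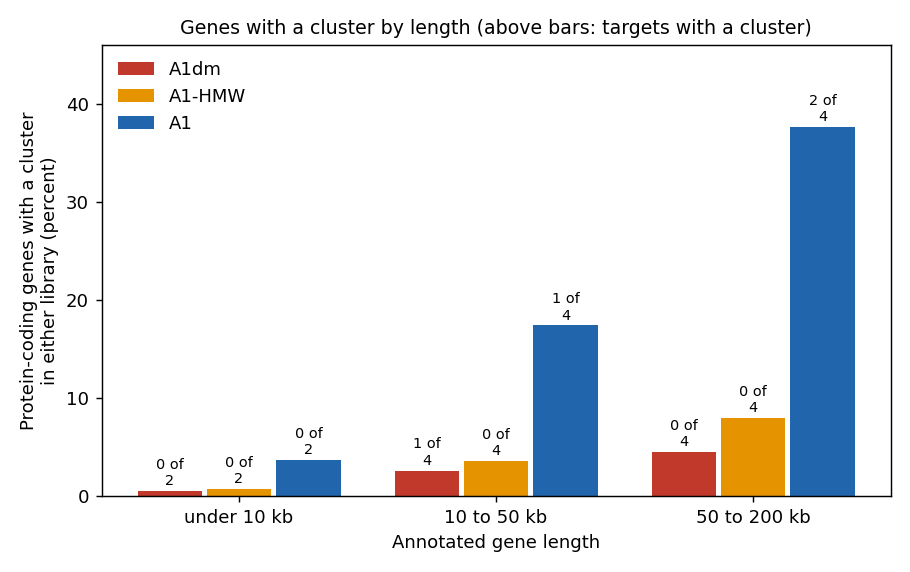
Share of protein-coding genes with a cluster in either library of A1dm, A1-HMW or A1 (vertical axis, percent) in 3 classes of annotated gene length; the numbers above the bars give the targets with a cluster and the targets in that class. The A1 bars reach 3.69, 17.4 and 37.6%, with 0 of 2, 1 of 4 and 2 of 4 targets.

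Most long runs of purines in these genes had no cluster. The RNA strands of the 10 genes held 567 runs of at least 12 purines, from 5 in HRAS to 186 in INSR, and 4 of these overlapped an A1 cluster (0.705%). Over all protein-coding genes, 7064 of 1126297 runs did (0.627%). CD44 had 86 such runs, MAPT 135, SMN1 and SMN2 29 each, CDK2 11 and MST1R 7, all without a cluster. PKM had 29, of which 1 overlapped an A1 cluster, and BCL2L1 50, of which 2 did. Per kb, the targets lay between 0.415 runs in MST1R and 1.83 in CDK2, and the median protein-coding gene had 0.845.

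**Figure D4:**
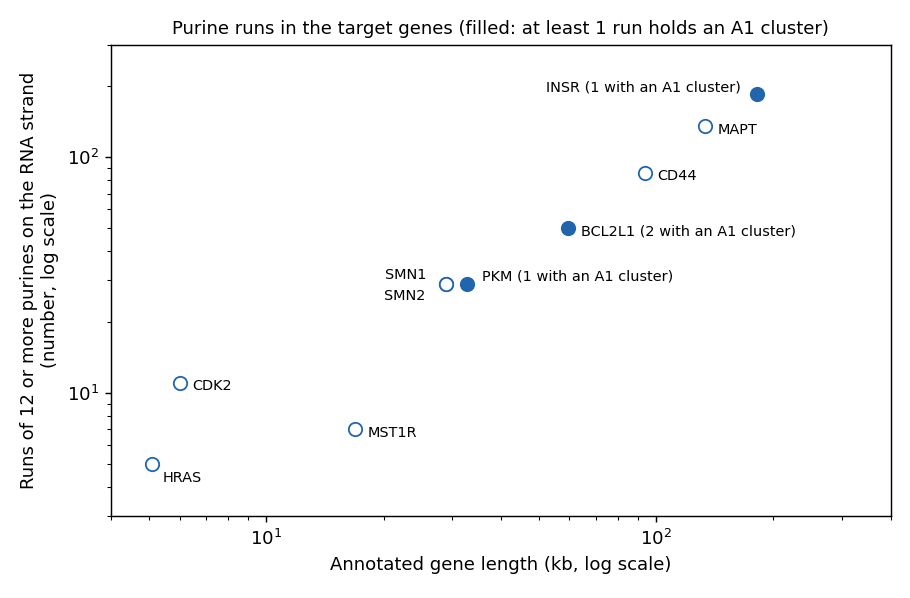
Number of runs of 12 or more purines on the RNA strand (vertical axis, log scale) against annotated gene length in kb (horizontal axis, log scale) for the 10 targets; filled points have at least 1 run under an A1 cluster. INSR (186 runs), BCL2L1 (50) and PKM (29) are filled, and MAPT (135) and CD44 (86) are open.

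No cluster of any library lay near a regulated exon. Windows of 300 nucleotides on either side of the exon's middle were examined for 19 regulated exons of the 10 genes, the 9 CD44 variant exons included, and 0 of them held a cluster. The window of BCL2L1 exon 2 ended inside this exon of 694 nucleotides and did not reach the 5′ splice site of the long form. Among 170058 windows around internal exons of protein-coding genes, 136 held an A1dm cluster (0.0800%), 145 an A1-HMW cluster (0.0853%) and 872 an A1 cluster (0.513%), so a count of 0 in 19 windows does not set the targets apart. Of the clusters in introns of protein-coding genes, 74 of 378 lay within 300 nucleotides of an exon for A1dm (19.6%), 125 of 894 for A1-HMW and 1021 of 7953 for A1 (12.8%). None of the 6 target clusters did.

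The element that hnRNP A1 is known to bind was present at some of these exons. TAGGG occurred on the RNA strand in 5 of the 19 windows (26.3%), in 4 genes, against 31.3% of all internal exon windows, and a run of 12 purines occurred in 4 of 19 (21.1%) against 36.2%. The windows are few and not independent, since 9 are from CD44 and those of SMN1 and SMN2 are from almost identical genes. These shares therefore do not set the targets apart from internal exons in general. At PKM exon 9 the element starts 2 nucleotides after the last base of the exon, inside the 5′ splice site, where the downstream silencer of this exon is known. At MST1R exon 11 it occurs 69 and 39 nucleotides upstream, at CD44 v5 61 nucleotides downstream, at CD44 v9 180 nucleotides upstream and at CDK2 exon 5 170 nucleotides upstream. These sites are shown, with the element in capitals and 10 nucleotides on each side, for comparison with the purine-rich clusters above.
PKM exon 9, chr15:72495347-72495371, minus strand: gtctggcaggTAGGGccctaagggc
MST1R exon 11, chr3:49933599-49933623, minus strand: gtgtaagggaTAGGGgcagggacag
MST1R exon 11, chr3:49933569-49933593, minus strand: gatctgaaagTAGGGgccagcctac
CD44 v5, chr11:35223385-35223409, plus strand: attccagcaaTAGGGaagattttgt
CD44 v9, chr11:35231318-35231342, plus strand: cagaaccaaaTAGGGgcaaaataga
CDK2 exon 5, chr12:56363075-56363099, plus strand: gatctcaaatTAGGGgttcagtcca
A match of these letters is a description of the sequence and says nothing of binding in these cells.

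No difference between bands in the share of clusters that lay in the targets passed the test. The targets, counted by the authors' gene name, took 0 of 232 and 1 of 596 A1dm clusters (0.168%, 95% Wilson interval 0.0296 to 0.944%), and 0 of 232 allows a share of up to 1.29%, taken for a count of 0 as 3 clusters of the total (the Wilson upper limit is 1.63%). They took 0 of 671 and 0 of 865 A1-HMW clusters, which allows up to 0.447 and 0.347% in the same way (Wilson upper limits 0.569 and 0.442%). Of the A1 clusters they took 1 of 5805 (0.0172%, interval 0.00304 to 0.0975%) and 2 of 8100 (0.0247%, interval 0.00677 to 0.0900%). The targets' mean share was 0.0839% ± 0.119 over the A1dm libraries (SD, n = 2) and 0% over those of A1-HMW. Over the A1 libraries it was 0.0210% ± 0.00528 (SD, n = 2). The difference of A1dm from A1 was 0.0629 points (p = 1), that of A1-HMW from A1 -0.0210 points (p = 0.33), and that of A1dm from A1-HMW 0.0839 points (p = 1), by exact two-sided permutation tests over libraries. With 2 libraries against 2 such a test cannot give less than 0.33, and all 3 adjusted values were 1 (Benjamini-Hochberg, exact permutation). The paper describes A1-HMW as a further band in the wild-type precipitate, beside A1, and these tests did not pair the bands. Pairing by replicate number is described in the last section. The A1dm value rests on the PKM cluster of replicate 2. Without that library, the difference of A1dm from A1 was -0.0210 points. Intervals and limits cover counting error only.

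Other transcripts tied to hnRNP A1 splicing were counted in the same way, beside shares of 2.81% of all protein-coding genes for A1dm, 4.54% for A1-HMW and 21.6% for A1. Of 5 further transcripts with an exon that hnRNP A1 regulates (HNRNPA1, FGFR2, CEACAM1, MAX and BRCA1), 1 had an A1dm cluster, 0 an A1-HMW cluster and 1 an A1 cluster. HNRNPA1, which encodes the protein itself and regulates its own splicing, had its A1dm cluster in replicate 2, in the last of 11 exons. This cluster was 63.3% purine with a longest run of 6, shorter than in the 6 target clusters. In A1dm replicate 2, 58.1% of all clusters held a run of at least 12. HNRNPA1 is known to have near-identical copies, and whether the cluster can be placed among them was not examined. FGFR2, a growth factor receptor, had its cluster in A1 replicate 2, in intron 6 and 2620 nucleotides before the next exon, with a run of 18 purines. Of 9 proteins that share the regulation of the targets' exons (PTBP1, HNRNPA2B1, SRSF1, SRSF2, SRSF3, HNRNPH1, HNRNPF, KHDRBS1 and TRA2B), 1 had an A1dm cluster, 0 an A1-HMW cluster and 0 an A1 cluster. This was SRSF1, the SR protein that counters hnRNP A1 at many exons, in its last exon in A1dm replicate 2, with a run of 17 purines. No list was tested, and with 5 and 9 genes these counts do not set the lists apart from all genes.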

How the data were processed

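PAR-CLIP was done in HEK293T cells, with 2 libraries for each of 3 bands. According to the study's methods, adapters were removed with BBduk, ribosomal RNA was filtered off reads were mapped with STAR, T-to-C changes were examined with wavClusteR and peaks were made with PARalyzer, whereas the submitters' notes name Bowtie and hg19; versions are not given in the sources used here. Per the file headers, the deposited lists hold wavClusteR clusters, thus of another caller than the study's peaks, called per library and annotated by HOMER with an Ensembl gene set. The deposited score was 0 in all 16269 lines. The start column lay 1 above the start in the identifier in 100% of lines, and the identifier's start was used. Clusters were placed on GENCODE 44 lifted to GRCh37 (the same build), on the gene's strand, with Python 3.11.15, NumPy 2.4.6, SciPy 1.17.1 and pysam 0.24.0. Regulated exons were taken from annotated transcripts by exon order.

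Regions merge clusters that overlap by at least 1 nucleotide. Distances run from edge to edge. Clusters on the mitochondrial genome and on unplaced contigs were left out of sequence counts. The unit of comparison was the library, by exact permutation tests. All 10 genes were named, with 2 further lists, of which 1 gene is not reported here. Members, lists and tests were chosen with earlier results of these data known, and the comparison of cluster ends after the PKM site had been seen. The strand rule was run on simulated clusters drawn inside genes, where the outcome was set by construction. The permutation test was compared with that of SciPy on 1 small set of fixed values. The study describes its replicates as independent experiments, and p-values measure only the spread between these libraries. Alternatives covered the gene assignment, start, denominator, pairing, replicates, exon window, run length, motif and overlap.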

Additional observations from a re-analysis of the deposited data

How the results depend on the processing

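Counting every cluster inside the gene span gave 6 clusters in 3 targets, against 4 in 2 by the authors' gene name. Requiring both replicates of a band left 1 target, PKM, and leaving out each library in turn gave 1 to 2, with 1 (PKM) without A1 replicate 2. Leaving out each library in turn, the difference of A1dm from A1 in the share of target clusters lay between -0.0210 points (without A1dm replicate 2, where the direction reversed because the only A1dm cluster was removed) and 0.147 points. That of A1dm from A1-HMW lay between 0 (without A1dm replicate 2) and 0.168 points, and that of A1-HMW from A1 between -0.0247 and -0.0172 points. With libraries paired by replicate number (replicate block), these differences were 0.0629, 0.0839 and -0.0210 points, and the exact sign-flip test, which cannot give less than 0.5 with 2 pairs, passed no threshold. The listed start, other denominators and merged regions kept the direction of each difference. Shorter purine runs, shorter motifs, a window of 1000 nucleotides and other overlap rules bear on counts alone and left these as they were over the 4 clusters named by the authors. The TAGG in a BCL2L1 cluster is outside that count. Numbers of clusters limit all of this, since the deposited lists give no reads and the A1dm and A1-HMW lists are short.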
